A study of Mus musculus with 4 samples.

Results

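The unfolded protein response (UPR) genes described here are 10 genes, Xbp1, Atf4, Ddit3, Trib3, Chac1, Asns, Hspa5, Dnajb9, Sdf2l1 and Herpud1, taken as the rows of the gene table that carry these symbols, out of 31253 rows in all. The symbols matched 11 rows, because Ddit3 has a second row for an overlapping gene model, which held 0 UMIs in all 4 libraries. RFP-positive cells of the left ventricle were sorted by FACS and profiled by scecRNA-seq with the 10x Chromium 3′ assay, in which each captured transcript is counted once near its 3′ end by its unique molecular identifier (UMI). There were 2 NC libraries, labelled Chow diet (in the study, 10% of energy from fat), and 2 HFpEF libraries, labelled HFD plus L-NAME (60% of energy from fat and 0.5 mg/ml of the nitric oxide synthase inhibitor). By the study's design, the mice of both diets had the tamoxifen-inducible Cdh5-CreER transgene, which is active in endothelial cells (ECs), the R26-stop-tdTomato reporter (RFP), and at least 1 floxed allele of Scarb1, the gene of SR-B1. In the study, each diet had mice with 2 floxed alleles and mice with 1, which with the diets makes 4 groups, and there are 4 libraries. The labels give no genotype to any library, so the libraries of a diet, treated here as replicates, may differ in genotype. Their spread may then hold a genotype difference that cannot be told apart from other variation. In addition, the number of mice behind a library is not given in the labels, and p-values measure the spread between libraries only.

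The UPR is the reaction of a cell to misfolded protein in the endoplasmic reticulum (ER). Its sensors PERK, IRE1 and ATF6 sit in the ER membrane: PERK slows translation and favours synthesis of the transcription factor ATF4, IRE1 splices Xbp1 mRNA, and ATF6 is cut to release a transcription factor, and these factors induce ER chaperones, degradation factors, amino acid metabolism and, under lasting stress, the death-linked factor CHOP. Capillary ECs, which exchange lipid and other nutrients with the myocardium, make and secrete many proteins through the ER. A 3′ count cannot separate spliced from unspliced Xbp1, and neither it nor any other count here measures protein.

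Promoter sequences are shown for the 4 genes with the lowest p for HFpEF against NC in all ECs in edgeR, and they were chosen by p alone. Each holds a sequence motif that ATF6 with NF-Y (the ERSE) or ATF4 is known to bind, as does the promoter of Herpud1, which is not shown. All come from RefSeq on GRCm38.p6, in the direction of transcription, from 250 bases before the RefSeq start of the gene to 25 bases after it, and all 10 genes had an entry. Capitals mark exact matches on either strand to the ERSE (CCAAT and CCACG separated by 9 bases, with only these 2 ends in capitals) or to the ATF4-type motif TGATGNAAN, which appears as its reverse complement where it lies on the minus strand of the promoter. Hspa5 is at chr2:34771840-34772114 on the plus strand, Trib3 at chr2:152344036-152344310 on the minus strand, Chac1 at chr2:119350992-119351266 on the plus strand and Asns at chr6:7693185-7693459 on the minus strand.
Hspa5: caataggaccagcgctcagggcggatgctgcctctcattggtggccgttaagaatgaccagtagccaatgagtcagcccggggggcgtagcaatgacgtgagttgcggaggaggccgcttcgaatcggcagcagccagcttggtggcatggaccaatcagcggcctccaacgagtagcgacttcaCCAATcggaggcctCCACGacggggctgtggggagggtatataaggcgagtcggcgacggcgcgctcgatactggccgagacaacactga
Trib3: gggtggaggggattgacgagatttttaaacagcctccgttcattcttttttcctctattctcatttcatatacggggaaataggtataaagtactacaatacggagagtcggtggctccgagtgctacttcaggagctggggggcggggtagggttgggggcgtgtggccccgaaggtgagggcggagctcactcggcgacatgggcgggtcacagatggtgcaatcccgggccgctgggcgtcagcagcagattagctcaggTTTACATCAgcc
Chac1: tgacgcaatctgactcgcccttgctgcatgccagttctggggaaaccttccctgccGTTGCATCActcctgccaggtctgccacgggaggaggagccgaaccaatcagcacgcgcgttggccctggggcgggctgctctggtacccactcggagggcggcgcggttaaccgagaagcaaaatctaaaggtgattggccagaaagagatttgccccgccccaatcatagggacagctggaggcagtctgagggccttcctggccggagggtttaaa
Asns: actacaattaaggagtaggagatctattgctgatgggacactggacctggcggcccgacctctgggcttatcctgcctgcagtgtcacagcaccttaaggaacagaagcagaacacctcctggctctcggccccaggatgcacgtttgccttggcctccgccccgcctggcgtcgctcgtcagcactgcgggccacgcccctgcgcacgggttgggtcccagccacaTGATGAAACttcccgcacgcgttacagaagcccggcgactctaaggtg

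The Hspa5 promoter held the ERSE from base -65 to base -47 relative to the start, and no other of the 10 promoters held an exact copy in the window searched (250 bases before to 50 after the start). Among 32851 mouse promoters of the same length, 39 (0.119%) held it. The ATF4-type motif lay at bases -23 to -15 in Asns, -194 to -186 in Chac1, 14 to 22 in Trib3 and -113 to -105 in Herpud1. These are 4 of the 10 promoters, against 1299 (3.95%) of all promoters. The ERSE in this form and the ATF4-type motif did not fall on the same promoter in any of the 10 genes. Other forms of ER stress element were not searched for. A match of letters is a description of the sequence and not a measure of binding.

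The authors' cell filter, over 200 genes and under 20% mitochondrial UMIs, was applied again and kept 7123 and 6695 cells of the NC libraries and 5454 and 20882 cells of the HFpEF libraries. Median depth was 3754 and 4127 UMIs per cell in NC and 1736.5 and 1619 in HFpEF, so levels are given as CPM, the UMIs of a gene scaled to all UMIs of the summed cells, and shares of cells after thinning. Clusters, made without the UPR genes, were grouped by fixed markers into capillary-like ECs (25099 cells), artery-like ECs (4819), vein-like ECs (1537) and mural-like cells (1671). All ECs numbered 6808 and 6201 in NC and 5110 and 19890 in HFpEF, and included 6058 cells of 2 unnamed EC clusters, which made up 9.66% and 7.23% of the NC libraries and 16.9% and 19.0% of the HFpEF libraries. One of these 2 unnamed clusters, led by the heat shock genes Hspa1b and Hspa1a, held 1.91% and 1.31% of the NC libraries and 15.2% and 17.2% of the HFpEF libraries. Mural-like cells had 7952 to 9932 CPM of the pericyte gene Rgs5 but also 415 to 528 CPM of the EC gene Pecam1, against 662 to 731 CPM in capillary-like ECs, so mural and EC transcripts occur together in them. Between 10 and 42 cell barcodes were shared by any pair of libraries, at most 0.728% of the smaller one. All 9 heat shock genes of a fixed list had higher CPM in both HFpEF libraries than in both NC libraries. This held in all ECs, where 23.2% of all genes did so, and in each of the 4 classes. The shares of all genes were 25.1% in capillary-like, 20.1% in artery-like and 22.1% in vein-like ECs and 17.8% in mural-like cells. The summed level of the 9 genes in all ECs was 10312 and 7027 CPM for NC and 17053 and 20227 CPM for HFpEF.

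**Figure D1:**
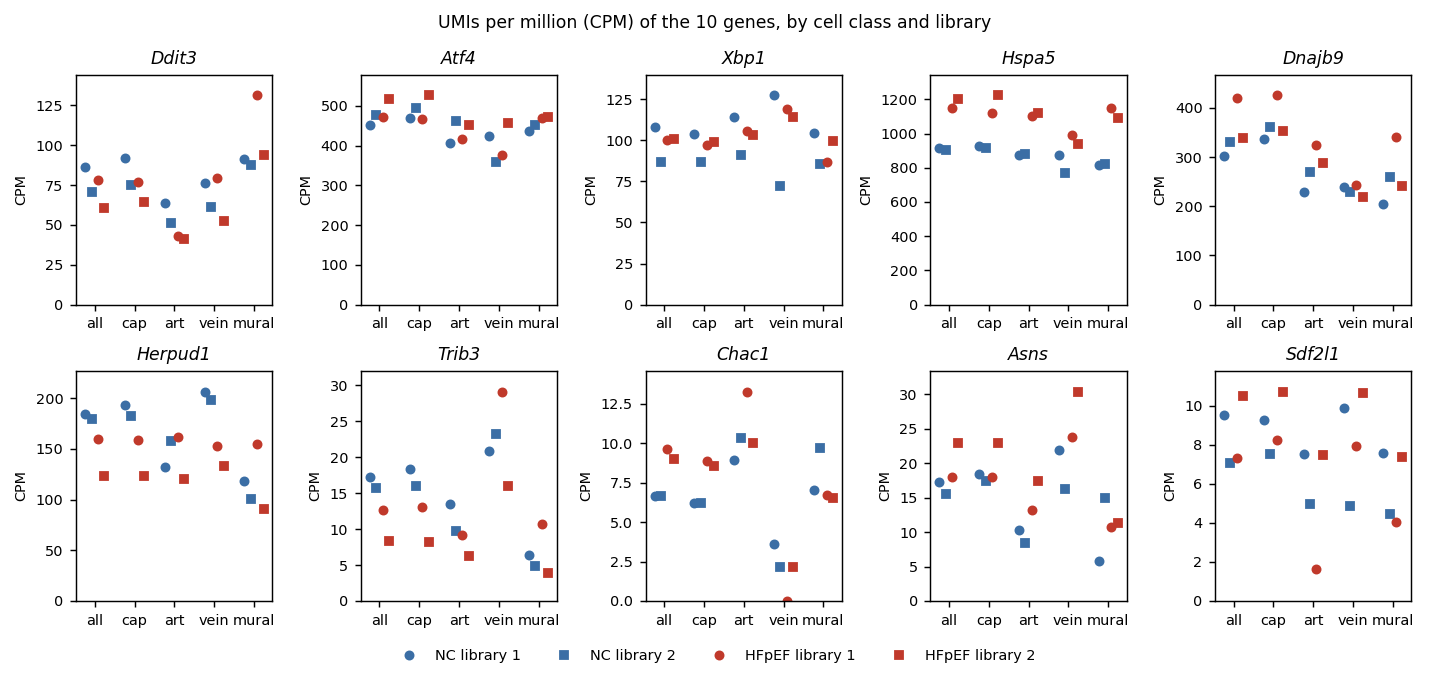
CPM (linear axis from 0) of each of the 10 genes in all ECs, capillary-like (cap), artery-like (art) and vein-like ECs and mural-like cells, with 1 point per library. Hspa5 was at 901 to 915 CPM in NC and 1147 to 1204 CPM in HFpEF in all ECs, and the red HFpEF points of Hspa5 lie above its blue NC points in every class.

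HFpEF was first compared with NC in all ECs. Hspa5, Dnajb9, Chac1 and Asns had higher CPM in both HFpEF libraries than in both NC libraries, Herpud1 and Trib3 had lower CPM in both, and Xbp1, Atf4, Ddit3 and Sdf2l1 overlapped. None of the 10 genes passed an adjusted p of 0.05 in edgeR's quasi-likelihood test, in which 0.046% of the 13031 genes tested were called higher and 0.023% lower. At an unadjusted p under 0.05 there were 5 of the 10, 3 higher and 2 lower, where 17.9% of all genes passed. DESeq2 called 1, Hspa5, and over all 12468 genes with an adjusted p it called 172 higher and 94 lower. Libraries of the diets did not overlap for 6 of the 10 genes, 4 higher and 2 lower in HFpEF, beside 23.2% of all genes higher and 27.4% lower. The median log2 fold change was 0.13 over the 10 genes and -0.004 over all genes tested. With a library left out the former ranged from 0.04 (without NC library 2) to 0.22 (without NC library 1), and it was 0.06 without HFpEF library 2.

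Xbp1, Atf4 and Ddit3 encode the transcription factors. Atf4, the effector of the PERK arm, stood at 452 and 477 CPM for NC and 471 and 517 CPM for HFpEF, an edgeR log2 fold change of 0.10 (SE 0.10, adjusted p = 0.623). Xbp1, which encodes the IRE1-dependent factor, stood at 108 and 87.0 CPM for NC and 100 and 101 CPM for HFpEF, with a log2 fold change of 0.06 (SE 0.13, adjusted p = 0.852 in edgeR). Ddit3, which encodes CHOP, stood at 86.4 and 70.4 CPM for NC and 78.1 and 60.4 CPM for HFpEF, with a log2 fold change of -0.17 (SE 0.17, adjusted p = 0.615 in edgeR). The last bases of Ddit3 overlap the 3′ end of Mars, which lies on the other strand, and how strand was used in counting is not given in the sources used here. For all 3 genes the libraries of the diets overlapped by CPM, and the difference was within the spread between libraries. By share of ECs after thinning to 1000 UMIs, given below, Atf4 was higher in both HFpEF libraries, as were 20.7% of all genes. Without HFpEF library 2 the fold change of Ddit3 turned to 0.02 (log2), and without NC library 2 that of Xbp1 turned to -0.10 (log2).

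Trib3, Chac1 and Asns are targets of ATF4, and their log2 fold changes had both signs. Trib3, a pseudokinase that restrains ATF4 and CHOP, was at 17.2 and 15.7 CPM for NC and 12.7 and 8.30 CPM for HFpEF, with a log2 fold change of -0.70 (SE 0.21, adjusted p = 0.184 in edgeR). Its 125 and 364 UMIs in the HFpEF libraries make it one of the sparser genes, and HFpEF library 2 lay well below HFpEF library 1. Over the alternatives its adjusted p ranged from 0.00282 to 0.601, and without HFpEF library 1 the edgeR log2 fold change was -0.99. With a library left out its diet has 1 library, which is then assumed to vary as the other diet does. Such a fit rests on an arm with no replicate. Chac1, which degrades glutathione, was at 6.66 and 6.66 CPM for NC and 9.65 and 8.98 CPM for HFpEF, with a log2 fold change of 0.49 (SE 0.15, adjusted p = 0.189 in edgeR). Asns, asparagine synthetase, was at 17.3 and 15.5 CPM for NC and 18.0 and 23.0 CPM for HFpEF, with a log2 fold change of 0.35 (SE 0.14, adjusted p = 0.258 in edgeR), and here HFpEF library 1 was close to NC library 1.

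Among the chaperones and degradation factors, Hspa5 had the lowest p of the 10 genes in all ECs. Hspa5 encodes BiP, the main ER Hsp70 chaperone, which also holds the UPR sensors inactive. It was at 915 and 901 CPM for NC and 1147 and 1204 CPM for HFpEF, a ratio of means of 1.29 and an edgeR log2 fold change of 0.39 (SE 0.10, adjusted p = 0.170). DESeq2 gave a log2 fold change of 0.38 and an adjusted p of 0.0427, and over all alternatives the adjusted p ranged from 0.0427 to 0.368. The summed heat shock list moved with Hspa5, as given above, and its part in the difference was not tested.

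Dnajb9, which encodes the BiP co-chaperone ERdj4, was at 303 and 330 CPM for NC and 421 and 340 CPM for HFpEF, with a log2 fold change of 0.28 (SE 0.14, adjusted p = 0.331 in edgeR). NC library 2 and HFpEF library 2 were close, and the separation rested mostly on HFpEF library 1. Herpud1, part of the ER-associated degradation (ERAD) machinery, was at 184 and 179 CPM for NC and 160 and 124 CPM for HFpEF, with a log2 fold change of -0.35 (SE 0.14, adjusted p = 0.276 in edgeR). Sdf2l1, an ER chaperone cofactor, was at 9.53 and 7.05 CPM for NC and 7.32 and 10.5 CPM for HFpEF, with a log2 fold change of 0.16 (SE 0.22, adjusted p = 0.747 in edgeR), and it turned to -0.05 without NC library 2 and to -0.15 without HFpEF library 2.

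Next, the classes were tested one by one, which asks whether the same order of the diets was seen in each. In capillary-like ECs 0 of 10 genes passed in edgeR, where 0.188% of 12218 genes were called higher and 0.106% lower. At an unadjusted p under 0.05 there were 4, Trib3 and Herpud1 lower and Hspa5 and Chac1 higher, beside 18% of all genes (9.18% higher and 8.81% lower). DESeq2 called 0 of the 10, beside 127 genes higher and 67 lower of 11472. The libraries of the diets did not overlap for these 4, 2 higher and 2 lower in HFpEF, beside 25.1% of all genes higher and 24.4% lower. Hspa5 was at 930 and 917 CPM for NC and 1118 and 1223 CPM for HFpEF, with a log2 fold change of 0.33 (SE 0.11, adjusted p = 0.185 in edgeR). Herpud1 was at 194 and 182 CPM for NC and 159 and 124 CPM for HFpEF, with a log2 fold change of -0.43 (SE 0.14, adjusted p = 0.178 in edgeR). Trib3 was at 18.3 and 16.02 CPM for NC and 13.1 and 8.24 CPM for HFpEF, with a log2 fold change of -0.78 (SE 0.22, adjusted p = 0.145 in edgeR). Chac1 was at 6.23 and 6.21 CPM for NC and 8.86 and 8.56 CPM for HFpEF, with a log2 fold change of 0.47 (SE 0.18, adjusted p = 0.227 in edgeR).

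These 4 genes kept the library order seen in all ECs. Capillary-like ECs are the largest part of all ECs, so this order is not an independent one. Dnajb9 and Asns, which had separated the diets in all ECs, overlapped in capillary-like ECs. Dnajb9 was at 337 and 362 CPM for NC and 425 and 352 CPM for HFpEF, so only HFpEF library 1 stood above NC. Leaving out HFpEF library 1, which leaves 1 HFpEF library with no replicate, gave Herpud1 and Trib3 log2 fold changes of -0.63 and -1.08 in edgeR. Over all alternatives the adjusted p of Herpud1 in this class ranged from 0.0177 to 0.590 and that of Trib3 from 0.000261 to 0.499. Different clusters held most of this class in each diet: clusters 6 and 7 held 31% and 19.9% of it in NC library 1 and 29.3% and 26.3% in NC library 2, and 7.04% and 10.6% in HFpEF library 1 and 5.57% and 6.09% in HFpEF library 2. Cluster 2, whose leading genes include the heat shock gene Hspa1b, went the other way, from 4.63% and 2.98% of the class in NC to 15.9% and 24% in HFpEF. So did cluster 8, from 5.47% and 4.65% to 18.6% and 13.9%.

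Cluster 1 was led by the cardiomyocyte genes Myl2, Tnni3 and Myl3, and stayed in the class because its 10 leading genes held no more of the fixed cardiomyocyte markers than of the capillary ones (1 each, Myl2 and Aplnr). Its name is therefore uncertain. It made up 11.3% of the class in both NC libraries and 20.5% and 19.2% in HFpEF. The 4 fixed cardiomyocyte markers summed to 79.3 and 64.4 CPM for NC and 227 and 72.7 CPM for HFpEF in the class. Of these markers 1 of 4 was higher in both HFpEF libraries, and their part in the differences was not tested. Leaving out cluster 1 changed these sums little, to 77.64 and 60.63 CPM for NC and 220.2 and 69.75 CPM for HFpEF. Without cluster 1, 0 of the 10 genes passed in edgeR, beside 27 genes higher and 13 lower of 12168. The edgeR log2 fold changes were then 0.39 for Hspa5 (adjusted p = 0.121), 0.53 for Chac1 (adjusted p = 0.162), -0.91 for Trib3 (adjusted p = 0.0857) and -0.40 for Herpud1 (adjusted p = 0.192). Without both clusters 1 and 2, 0 of them passed, beside 0 genes higher and 1 lower of 12208, and Hspa5 had a log2 fold change of 0.40 (adjusted p = 0.136 in edgeR).

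In artery-like ECs 0 of 10 genes passed in edgeR, where 0.179% of 10642 genes were called higher and 0.0564% lower. At an unadjusted p under 0.05 there were 5, beside 11.7% of all genes (6.23% higher and 5.43% lower). DESeq2 called 0 of the 6 for which it gave an adjusted p, beside 19 genes higher and 9 lower of 4827. Ddit3 was at 63.9 and 51.2 CPM for NC and 43.1 and 41.1 CPM for HFpEF, with a log2 fold change of -0.45 (SE 0.16, adjusted p = 0.324 in edgeR). Leaving out NC library 2, which leaves 1 NC library with no replicate, gave Ddit3 a log2 fold change of -0.61 in edgeR. Asns was at 10.3 and 8.39 CPM for NC and 13.3 and 17.4 CPM for HFpEF, with a log2 fold change of 0.80 (SE 0.25, adjusted p = 0.263 in edgeR). Hspa5 was at 876 and 880 CPM for NC and 1100.0 and 1123 CPM for HFpEF (log2 fold change 0.36, SE 0.12, adjusted p = 0.306 in edgeR). Dnajb9 was at 229 and 270 CPM for NC and 324 and 289 CPM for HFpEF (log2 fold change 0.31, SE 0.13), and Trib3 at 13.5 and 9.68 CPM for NC and 9.11 and 6.25 CPM for HFpEF (log2 fold change -0.73, SE 0.32), both with an edgeR adjusted p of 0.409. For these 5 genes, 3 higher and 2 lower in HFpEF, the libraries of the diets did not overlap, beside 20.1% of all genes higher and 23.7% lower. Sdf2l1 rested on 2 UMIs in HFpEF library 1 of this class, and its log2 fold change of -0.02 turned to 0.27 without that library and to 0.31 without NC library 1.

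In vein-like ECs 9 of the 10 genes were tested, as Chac1 was left out by the count filter with 7 and 4 UMIs in NC and 0 and 4 in HFpEF. None of the 9 passed in edgeR, where 0.683% of 9375 genes were called higher and 0.181% lower. At an unadjusted p under 0.05 there was 1, Herpud1, beside 11.2% of all genes (6.22% higher and 4.97% lower). DESeq2 called 0 of the 6 for which it gave an adjusted p, beside 14 genes higher and 8 lower of 4344. Herpud1 was at 206 and 198 CPM for NC and 153 and 134 CPM for HFpEF, with a log2 fold change of -0.55 (SE 0.17, adjusted p = 0.156 in edgeR). Of the 9 genes, 2 (Hspa5 and Asns) were higher in both HFpEF libraries and 1 (Herpud1) was lower, beside 22.1% and 19.3% of all genes. Hspa5 was at 872 and 770 CPM for NC and 994 and 936 CPM for HFpEF, with a log2 fold change of 0.21 (SE 0.17, adjusted p = 0.676 in edgeR). Asns was at 21.8 and 16.2 CPM for NC and 23.8 and 30.4 CPM for HFpEF, from 9 UMIs in HFpEF library 1 (log2 fold change 0.56, SE 0.29, adjusted p = 0.481 in edgeR).

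In mural-like cells 0 of 10 genes passed in edgeR, where 0.492% of 10166 genes were called higher and 0.0393% lower. At an unadjusted p under 0.05 there was 1, Hspa5, beside 10.3% of all genes (5.96% higher and 4.3% lower). DESeq2 called 0 of the 7 for which it gave an adjusted p, beside 15 genes higher and 0 lower of 8990. Hspa5 was at 815 and 819 CPM for NC and 1148 and 1090 CPM for HFpEF, with a log2 fold change of 0.49 (SE 0.13, adjusted p = 0.140 in edgeR). Ddit3 was at 91.1 and 87.8 CPM for NC and 131 and 94.2 CPM for HFpEF, with a log2 fold change of 0.32 (SE 0.18, adjusted p = 0.595 in edgeR), with the HFpEF libraries above NC here and below NC in artery-like ECs. Without HFpEF library 1 the log2 fold change of Ddit3 in mural-like cells was 0.0888. Atf4 was at 436 and 451 CPM for NC and 469 and 472 CPM for HFpEF (log2 fold change 0.12, SE 0.13, adjusted p = 0.831 in edgeR). With Hspa5 these made 3 genes higher in both HFpEF libraries, and 1, Chac1 with 5 to 24 UMIs a library, was lower in both, beside 17.8% and 23.2% of all genes. Herpud1 was at 118 and 101 CPM for NC and 155 and 90.7 CPM for HFpEF, so the HFpEF libraries lay on both sides of NC.

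**Figure D2:**
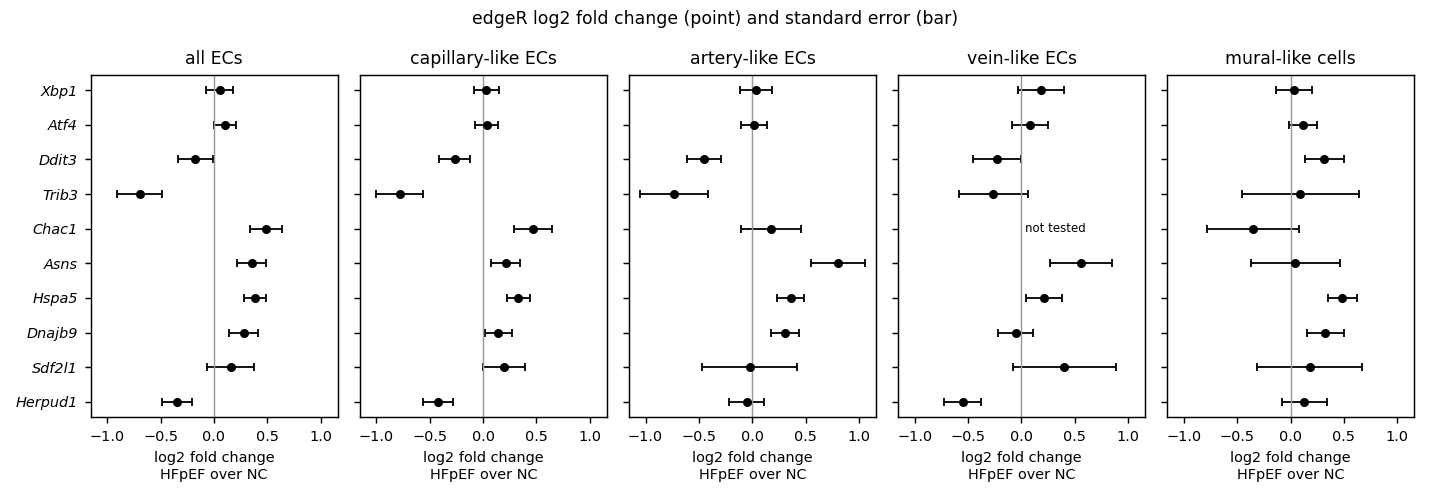
edgeR log2 fold change of HFpEF over NC (x axis, point) with its standard error (bar) for each of the 10 genes (y axis) in all ECs and in each class, with 2 libraries per diet. The points of Hspa5 lie between 0.21 and 0.49 in all 5 panels, and Chac1 was not tested in vein-like ECs.

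Whether the diet difference itself differed between classes was tested with an interaction term, with capillary-like ECs as the reference and the library as a block. No gene of the 10 passed in artery-like ECs (where 0.359% of 11140 genes did), vein-like ECs (0.126%) or mural-like cells (0.503%), and at an unadjusted p under 0.05 edgeR gave 2, 0 and 2 of them, beside 5.27%, 5.66% and 7.06% of all genes. The lowest p were in mural-like cells: the log2 fold change of Ddit3 was higher there by 0.54 (SE 0.15, adjusted p = 0.119 in edgeR) and that of Herpud1 by 0.53 (SE 0.15, adjusted p = 0.152). In artery-like ECs the other 2 were Herpud1 (0.38 higher, SE 0.12, adjusted p = 0.418 in edgeR) and Asns (0.55 higher, SE 0.26, adjusted p = 0.940). For Hspa5 the differences from capillary-like ECs were 0.01 (SE 0.09) in artery-like ECs, -0.14 (SE 0.10) in vein-like ECs and 0.13 (SE 0.10) in mural-like cells. A p that misses the threshold does not show that the classes respond alike.

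The levels of the genes were then compared between classes within each library, as log2 ratios of CPM to capillary-like ECs with 1 CPM added to both, and without a test because the classes were drawn from the same clustering. In artery-like ECs 7 of the 10 genes were lower in all 4 libraries and 2 were higher, beside 19% of 7670 genes lower and 34.1% higher. Sdf2l1, counted among the 7, had 2 UMIs in HFpEF library 1 of artery-like ECs. Among the lower genes the log2 ratio was -0.63 ± 0.14 (SD, n = 4 libraries) for Ddit3, -0.41 ± 0.11 for Dnajb9 and -0.48 ± 0.14 for Trib3. Chac1 ran the other way, with a log2 ratio of 0.46 ± 0.19 (SD, n = 4), and Xbp1 was at 0.10 ± 0.04.

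In vein-like ECs Trib3 was higher than in capillary-like ECs in all 4 libraries (log2 ratio 0.66 ± 0.40, SD, n = 4), opposite to its direction in artery-like ECs. Dnajb9 was lower (-0.66 ± 0.13), and Chac1 had too few UMIs in vein-like ECs for a ratio to be read. Here 4 of the 10 genes, with Chac1 counted among them, were lower and 1 higher in all 4 libraries, beside 17.9% and 23.3% of all genes. In mural-like cells 5 genes were lower in all 4 libraries and 0 higher, beside 23.8% and 31.6% of all genes. These were Trib3 (-1.03 ± 0.57, SD, n = 4), Asns (-0.84 ± 0.54), Sdf2l1 (-0.57 ± 0.26), Dnajb9 (-0.51 ± 0.17) and Herpud1 (-0.51 ± 0.36). In mural-like cells Trib3 rested on 8 to 12 UMIs a library, Asns on 8 to 37 and Sdf2l1 on 3 to 17, so their ratios are uncertain. Hspa5 differed little, with log2 ratios of -0.07 ± 0.04 in artery-like ECs, -0.22 ± 0.13 in vein-like ECs and -0.12 ± 0.11 in mural-like cells.

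**Figure D3:**
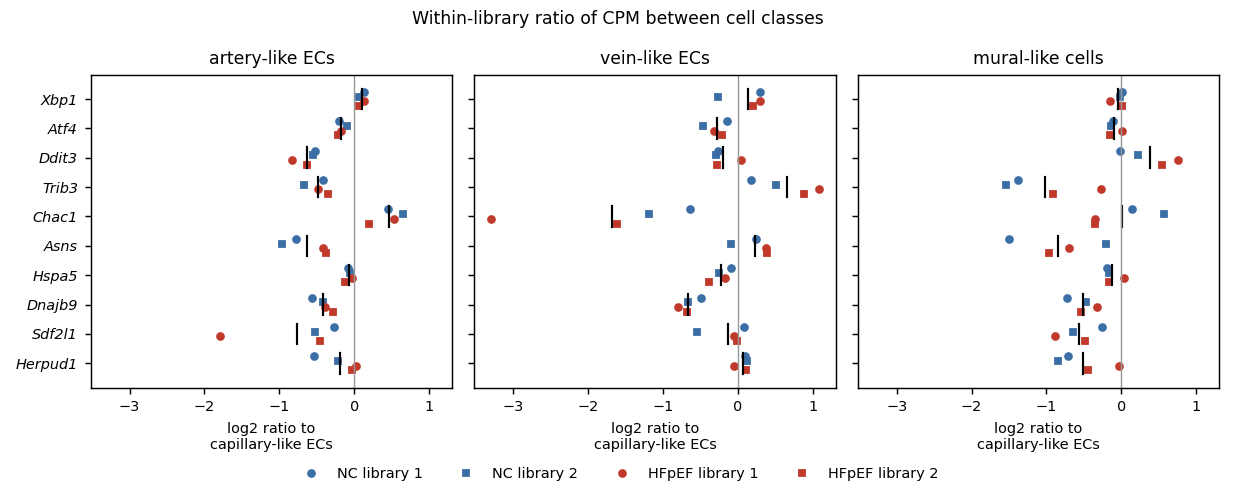
Log2 ratio of CPM in artery-like ECs, vein-like ECs and mural-like cells to capillary-like ECs of the same library (x axis) for the 10 genes (y axis), with 1 point per library and a black bar at the mean of 4. Dnajb9 lies left of 0 in every library and class, and Trib3 lies right of 0 in vein-like ECs and left of 0 in the other panels.

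The capillary-like class held 7 clusters, formed without the UPR, heat shock and immediate early genes, and the genes were described in each of them with no test. Hspa5 was lowest in clusters 1 and 7, at 410 ± 176 and 518 ± 114 CPM (SD, n = 4 libraries), and highest in clusters 4 and 5, at 1425 ± 193 and 1412 ± 110 CPM. Dnajb9 ran from 109 ± 32.1 CPM in cluster 1 to 546 ± 65.0 CPM in cluster 5, and Atf4 from 203 ± 65.7 CPM in cluster 1 to 691 ± 56.6 CPM in cluster 4. The ratio of the highest to the lowest cluster was between 2.61 and 5.01 for Hspa5, between 3.87 and 7.99 for Dnajb9 and between 2.94 and 5.68 for Atf4 in the 4 libraries. Clusters 4 (led by Cxcl10, Cxcl2 and Adamts4) and 5 (led by Hexim1, Gm26532 and Tnfsf9) were thus high for all 3 genes, and Dnajb9 was itself among the 10 leading genes of cluster 5 although it was left out of the clustering. In turn, cluster 7 (led by Timp4, Thrsp and Car4) and cluster 1 were low. Median depth over the pooled libraries was 1027.5 UMIs per cell in cluster 1 and 3037 in cluster 7, and 3167 and 3390.5 in clusters 4 and 5. Within each library clusters 4 and 5 were deeper than cluster 7. In NC library 1, for example, the median was 4890.5 in cluster 4 and 3297.5 in cluster 7. Cluster 2 was the shallowest, at 802.5, and had Hspa5 at 1115 ± 166 CPM.

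Ddit3 ranged from 36.5 ± 11.2 CPM in cluster 1 to 109 ± 23.7 CPM in cluster 5 (SD, n = 4). Chac1 had no cluster that was highest throughout: its highest level was 11.01 CPM in cluster 4 in NC library 1, 24.4 CPM in cluster 2 in NC library 2, and 12.9 and 12.3 CPM in cluster 5 in the HFpEF libraries. The value of 24.4 CPM comes from 128 cells, and so from few UMIs. Xbp1 did not follow them: it was at 85.1 ± 13.0 CPM in cluster 4 and 118 ± 10.9 CPM in cluster 7, and Trib3 was likewise at 8.64 ± 2.97 CPM in cluster 4 and 17.5 ± 4.68 CPM in cluster 7. Herpud1 stayed between 115 ± 16.02 CPM (cluster 1) and 182 ± 26.4 CPM (cluster 4). The summed level of 10 immediate early genes, which respond quickly to many stimuli, moved with Hspa5, Dnajb9 and Atf4 across these clusters, from 4963 CPM in cluster 1 to 31124 CPM in cluster 5 in NC library 1 and from 9659 CPM in cluster 7 to 24753 CPM in cluster 5 in HFpEF library 2. The summed heat shock list ran from 3858 CPM in cluster 1 to 17274 CPM in cluster 2 in NC library 1 and from 8388 CPM in cluster 7 to 26073 CPM in cluster 4 in HFpEF library 2. Their part in the spread was not tested.

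**Figure D4:**
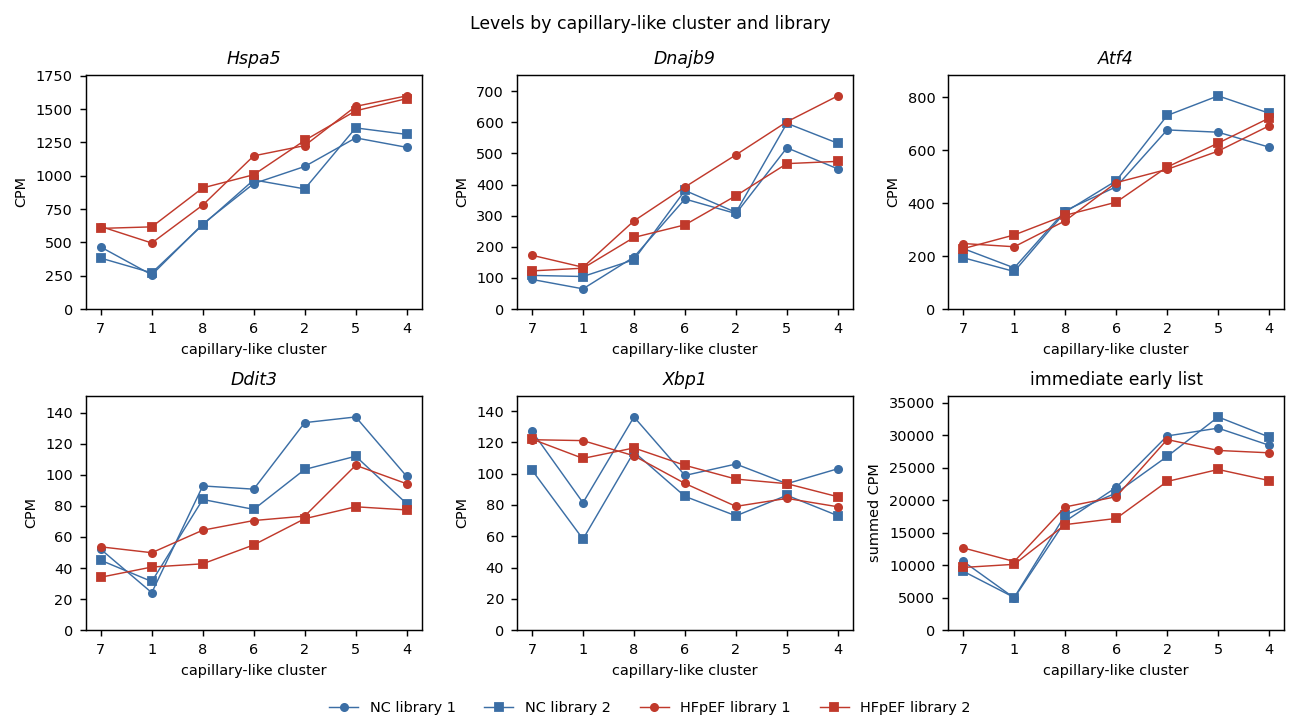
CPM of 5 genes and the summed CPM of 10 immediate early genes (linear axes from 0) in the 7 capillary-like clusters, with 1 line per library and the clusters in the same order in every panel. Hspa5, Dnajb9, Atf4 and the immediate early list lie lower in clusters 7 and 1 than in clusters 5 and 4 in all 4 libraries, while Xbp1 does not.

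As the clusters differed in both level and share between diets, the diets were also compared inside each of 13 clusters, those of ECs and mural-like cells with at least 50 cells in every library. The mean of the HFpEF libraries was above that of the NC libraries for Hspa5 in 13 of 13 clusters, with log2 ratios from 0.09 to 1.07 (median 0.33), and in 12 of them neither HFpEF library fell to the level of an NC library. Of 7764 genes with a mean of at least 10 CPM, 0.966% were above in 12 or more clusters. The 7764 genes were not matched to Hspa5 in level. A gene near 10 CPM has few UMIs in the smaller clusters, where counting error alone can make its libraries overlap. The share is therefore no measure of how rare the order of Hspa5 is. All 13 clusters come from the same 4 libraries. They repeat 1 comparison of libraries and are not independent of each other. The EC clusters among these 13 were then given weights that were the same in all libraries, set by their cells pooled over the libraries. HFpEF library 2, with 19890 ECs, gave the largest part of these cells, so the weights lie near its own mix. With these weights Hspa5 came to 890 and 870 CPM for NC and 1100.0 and 1109 CPM for HFpEF, a log2 ratio of 0.33 beside 0.37 for the cells as they were. At this common mix Hspa5 and Asns lay above NC in both HFpEF libraries and Herpud1 and Atf4 below, beside 22.8% and 21.4% of all genes, and the other 6 overlapped. These 6 included Dnajb9, Trib3 and Chac1, which had separated the diets in the cells as they were. Dnajb9 came to 287 and 311 CPM for NC and 403 and 307 CPM for HFpEF. Trib3 came to 16.9 and 12.5 CPM for NC and 13.4 and 8.73 CPM for HFpEF. Chac1 came to 6.33 and 9.90 CPM for NC and 9.29 and 8.28 CPM for HFpEF. The 9.90 CPM of NC library 2 stood at 6.66 CPM in the cells as they were. In that library Chac1 was at 21.8 CPM in the unnamed cluster led by Hspa1b and Hspa1a and at 24.4 CPM in cluster 2. These clusters held 88 and 128 cells there, so the overlap of Chac1 rests on few UMIs. The log2 ratio of Trib3 at the common mix was -0.41 and that of Chac1 0.11. Within single clusters, Dnajb9 lay above NC in both HFpEF libraries in 7 and below in 0, and Herpud1 above in 0 and below in 7. Of the same 7764 genes, 11% lay above in 7 or more clusters and 10.6% below. Ddit3 lay above in 2 and below in 6. Atf4 was above in 2 and below in 5. At the common cluster mix its log2 ratio was -0.09, beside 0.09 as the cells were. Neither was larger in size than the SE of 0.10 of its edgeR fold change in all ECs. The cause of the change of sign was not tested. The summed heat shock list lay above NC in all 13 clusters, beside 0.966% of the 7764 single genes in 12 or more. As a sum it is not matched in level to single genes, so this share does not show how rare its order is.

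Shares of ECs with at least 1 UMI were compared after every cell was thinned to 1000 UMIs, which left out 6.20% and 5.16% of ECs in NC and 18.3% and 25.5% in HFpEF. Hspa5 was found in 52.7% (95% exact interval 51.5 to 53.9) and 49.8% (48.5 to 51.1) of ECs in NC and in 58.6% (57.1 to 60.1) and 63.3% (62.5 to 64.1) of ECs in HFpEF. Dnajb9 was found in 22.5% (21.5 to 23.5) and 22.6% (21.5 to 23.7) of ECs in NC and in 29.5% (28.2 to 31.0) and 25.6% (24.9 to 26.3) of ECs in HFpEF. The intervals cover counting error only. These genes are used by all cell types, so no cell type that lacks them was at hand to measure free RNA. Ddit3 was found in 8.43% and 7.12% of ECs in NC and 7.25% and 5.64% of ECs in HFpEF, and Herpud1 in 17.5% and 16.03% of ECs in NC and 15.01% and 11.5% of ECs in HFpEF.

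The shares of 5 genes (Atf4, Hspa5, Dnajb9, Chac1 and Asns) were higher in both HFpEF libraries than in both NC libraries and 1 (Herpud1) was lower, beside 20.7% and 24.2% of the 13031 genes. The sparse genes stayed near 1%: Chac1 was found in 0.532% and 0.731% of ECs in NC and 1.077% and 0.891% of ECs in HFpEF, and Trib3 in 1.39% and 1.60% of ECs in NC and 1.70% and 0.844% of ECs in HFpEF. Trib3 in HFpEF library 1 was thus above NC by share at this thinning depth but below it by CPM. Thinned to 750 UMIs, Trib3 was found in 1.08% and 1.17% of ECs in NC and 1.03% and 0.637% in HFpEF. Thinned to 1500 UMIs, it was found in 2.73% and 2.06% of ECs in NC and 1.97% and 1.26% in HFpEF. At both of these depths the HFpEF libraries lay below NC, as by CPM. The order of Trib3 by share thus changed with the thinning depth, and no order is read from its shares. Without thinning, all 10 shares were lower in HFpEF, as were those of 92.5% of all genes, for example 80.2% and 78.7% in NC and 69.8% and 73.1% in HFpEF for Hspa5, beside median depths of 3690 and 4040 UMIs per EC in NC and 1707 and 1588 in HFpEF.

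**Figure D5:**
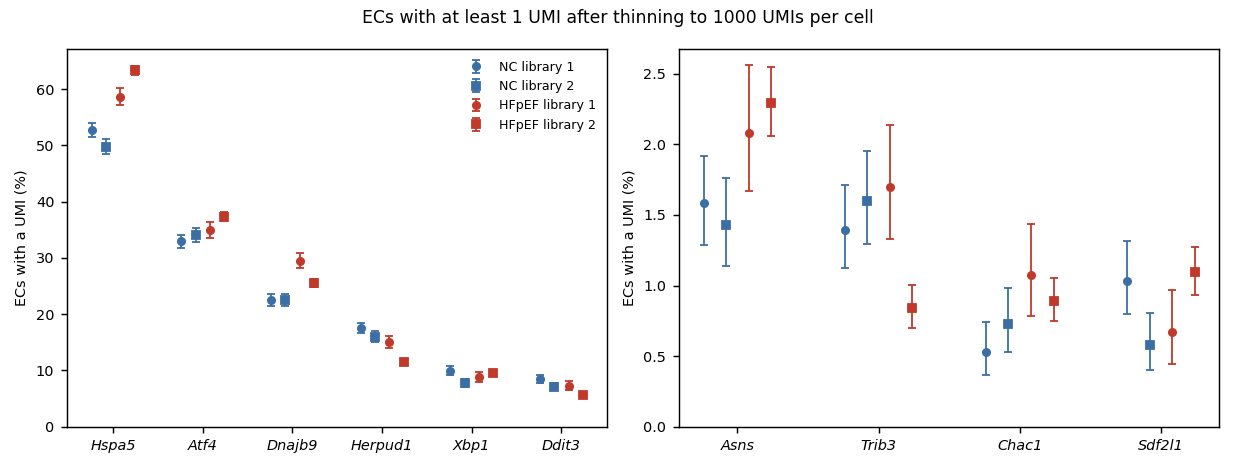
Percentage of ECs with at least 1 UMI (y axis, from 0) for each gene (x axis) after thinning to 1000 UMIs per cell, with 1 point per library and bars for the 95% exact Clopper-Pearson interval. Hspa5 was found in 49.8% to 52.7% of ECs in NC and 58.6% to 63.3% of ECs in HFpEF.

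The genes whose counts were most like those of Atf4, Hspa5 and Ddit3 across single ECs were sought among 2610 genes found in at least 5% of thinned ECs of every library, by Pearson's r on log counts over 31257 thinned ECs, computed within each library and averaged over 4. For Hspa5 they included Junb (mean r 0.251), Egr1 (0.249), Hsp90aa1 (0.226) and Fos (0.211). For Atf4 they included Junb (0.210), Egr1 (0.192), Cdkn1a (0.188) and Zfp36 (0.165). Of these, Junb, Egr1, Fos and Zfp36 are immediate early genes. For Ddit3 the highest mean r was 0.080, with Egr1, which is too weak to read in counts this sparse. Between members the highest values were those of Hspa5 with Dnajb9 (mean r 0.139, 0.111 to 0.171 over libraries), Atf4 with Hspa5 (0.127) and Atf4 with Dnajb9 (0.113). All ECs of a library share its depth and handling, and the values are descriptions.

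The other genes of the pathway were taken from lists of sensors and regulators, ATF4 targets, aminoacyl-tRNA synthetases, ER chaperones, ERAD and translocation factors and CHOP-linked apoptosis genes, and none of them passed in all ECs in edgeR. Of 17 sensors and regulators, 2 were higher and 1 lower at an unadjusted p under 0.05 (9.3% and 8.63% of all genes were). The 3 with the lowest p were Creb3, an ER-bound transcription factor (log2 fold change -0.35, adjusted p = 0.165 in edgeR), Eif2s1, the translation factor that PERK phosphorylates (0.31, adjusted p = 0.176), and Ppp1r15b, a subunit of the phosphatase that reverses this (0.30, adjusted p = 0.205). Their libraries did not overlap, as for Ppp1r15b at 47.8 and 43.2 CPM for NC and 55.1 and 55.6 CPM for HFpEF. These 3 were picked by their p, which favours genes whose libraries separate. Of all genes in all ECs, 23.2% lay higher and 27.4% lower in this way.

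Of 20 other ATF4 targets tested, 3 were higher and 2 lower at an unadjusted p under 0.05, beside 9.3% and 8.63% of all genes. Gdf15, a secreted stress cytokine, stood at 29.4 and 20.8 CPM for NC and 70.3 and 72.9 CPM for HFpEF in all ECs, a log2 fold change of 1.53 (SE 0.16, adjusted p = 0.0556 in edgeR). Gdf15 was the 1 gene of this list that passed an adjusted p of 0.05 in artery-like ECs (log2 fold change 1.73, adjusted p = 0.0329 in edgeR). It was also the 1 that passed in vein-like ECs (2.15, adjusted p = 0.00355). Of all genes 0.179% and 0.683% were called higher in these classes. Gdf15 was named for these classes after the values were seen. Cebpb, a partner of ATF4 and CHOP, had a log2 fold change of 0.61 (adjusted p = 0.124 in edgeR), and Pck2, the mitochondrial PEPCK, one of -0.50 (adjusted p = 0.135).

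Among 14 aminoacyl-tRNA synthetases, whose genes ATF4 activates, 1 was higher and 1 lower at an unadjusted p under 0.05, beside 9.3% and 8.63% of all genes. Wars, at 81.5 and 88.0 CPM for NC and 112 and 111 CPM for HFpEF (log2 fold change 0.41, adjusted p = 0.151 in edgeR), and Sars (-0.28, adjusted p = 0.225) had opposite signs. Among 19 ER chaperones and folding enzymes 3 were higher and 3 lower, beside the same shares of all genes. The lowest p belonged to Fkbp2, an ER prolyl isomerase (log2 fold change -0.48, adjusted p = 0.121 in edgeR), Ero1l, an oxidase for disulfide bonds (0.36, adjusted p = 0.182), and Hyou1, an ER Hsp110 chaperone (0.52, adjusted p = 0.194). Among 20 ERAD and translocation genes 1 was higher and 3 lower, again beside these shares of all genes. Edem2 (log2 fold change -0.41, adjusted p = 0.162 in edgeR) and Sel1l (-0.31, adjusted p = 0.213) were on the side of Herpud1. Ssr3, the 1 that was higher (log2 fold change 0.28, adjusted p = 0.229 in edgeR), was on the other side.

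Of 6 CHOP-linked apoptosis genes, 3 were higher and 1 lower at an unadjusted p under 0.05 in all ECs, beside 9.3% and 8.63% of all genes. Tnfrsf10b, a death receptor, was at 24.2 and 20.3 CPM for NC and 36.6 and 62.5 CPM for HFpEF (log2 fold change 1.19, SE 0.23, adjusted p = 0.124 in edgeR). It was among the leading genes of the unnamed EC cluster led by Hspa1b and Hspa1a. In mural-like cells its log2 fold change was 1.28 (SE 0.28, adjusted p = 0.0457 in edgeR), where 0.492% of 10166 genes were called higher. Tnfrsf10b was named for this class after the values were seen. Bcl2, which opposes apoptosis, had a log2 fold change of 0.48 (adjusted p = 0.124 in edgeR), and Bbc3, which promotes it, one of -0.32 (adjusted p = 0.213). The median log2 fold change was 0.04 for sensors and regulators, 0.05 for ATF4 targets, 0.05 for synthetases, 0.05 for chaperones, -0.03 for ERAD and translocation and 0.40 for CHOP-linked genes, beside -0.004 for all genes.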

How the data were processed

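RFP-positive left ventricular cells of 2 NC and 2 HFpEF libraries were analysed. The authors deposited UMI counts per gene and cell for each library, made with Cell Ranger 5.0.1 after fastp trimming on mm10 with reads downsampled between libraries, and these counts are not normalized. The 10 genes, the gene lists and the tests were chosen with earlier results of these data known.

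Cells with over 200 genes and under 20% mitochondrial UMIs were kept, which gave 29867750 and 31201157 UMIs in NC and 10801149 and 47117650 in HFpEF. Cells were clustered on 2000 variable genes, without the listed genes, with 10 components, 20 neighbours and Louvain resolution 0.8, and clusters were named from fixed markers. Scrublet called 0 doublets automatically, which was taken as a failed call, so no cell was removed in the main result and the cells with the highest scores (238 to 3488 per library) were left out as an alternative.

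Counts were summed per library and class and tested with edgeR 4.0.16 (R 4.3.3), quasi-likelihood test, TMM, filterByExpr, diet as the only term, Benjamini-Hochberg adjustment over all genes tested and a call at 0.05. DESeq2 1.42.0 was an alternative. With 2 libraries per diet an exact permutation test could not go below p = 0.333 and was not used. On simulated counts for all ECs (12889 and 12884 genes), edgeR called 139 of 200 genes changed by 1 on the log2 scale, with 15 false calls, and 188 of 200 changed by 2, with 17 false calls. Both changes are larger than any of the 10 genes had in all ECs, where the largest was -0.70 for Trib3. In the real data Gdf15, with a log2 fold change of 1.53, was not called in all ECs (adjusted p = 0.0556 in edgeR). The simulation therefore does not show what the test could find for the 10 genes.

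All 10 genes were named. Of each other list, genes were named that passed in all ECs or, where fewer than 3 did, the 3 with the lowest p and a mean of at least 10 CPM, and not every one of these is printed. Thinned cells were drawn to 1000 UMIs. Alternatives covered the tool, count filter, replicate block, mitochondrial genes, TMM, each library left out, hemoglobin-rich cells, doublets, thinning, single-cell gating and clustering resolution. Capillary-like ECs summed with the unnamed clusters and the common cluster mix, and capillary-like ECs without cluster 1 and without clusters 1 and 2, were added after seeing the data. One gene among those most like Hspa5 and Atf4 is not reported here.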

Additional observations from a re-analysis of the deposited data

Results flagged for a closer look

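Ddit3 went in opposite directions in different cell classes: the log2 ratio of mean CPM was 0.333 in mural-like cells, with each HFpEF library above NC (131 and 94.2 CPM, against 91.1 and 87.8 CPM), and -0.451 in artery-like ECs, with each below. The edgeR log2 fold change in mural-like cells fell from 0.32 to 0.0888 without HFpEF library 1. The difference between these classes was not itself tested, and the tests against capillary-like ECs are in the report.

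Chac1 was higher in both HFpEF libraries in capillary-like ECs, with a log2 ratio of mean CPM of 0.485, and lower in both in vein-like ECs and in mural-like cells, where the log2 ratio was -0.34. In vein-like ECs it had 7 and 4 UMIs in NC and 0 and 4 in HFpEF, so no fold is given. The interaction terms against capillary-like ECs were -1.20 (SE 0.81, adjusted p = 0.941 in edgeR) in vein-like ECs and -0.83 (SE 0.44, adjusted p = 0.761) in mural-like cells.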

How the results depend on the processing

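With 2 libraries per diet, depth limited Chac1, Trib3, Asns and Sdf2l1 in the smaller classes. Of 49 results for single genes, 26 kept their direction under every alternative run. The number of the 10 genes called in all ECs went from 0 to 1 with DESeq2 (Hspa5 higher), beside 172 genes higher and 94 lower of 12468. It also went to 1 with no count filter (Trib3 lower), beside 504 genes higher and 377 lower of 19152. Without HFpEF library 1 the log2 fold change of Trib3 was -0.99. In capillary-like ECs it went from 0 to 2 with no count filter, beside 550 genes higher and 413 lower of 18162. It also went to 2 with the replicate block, beside 405 genes higher and 232 lower of 12218. Trib3 and Herpud1 were the genes called lower in both, and without HFpEF library 1 their log2 fold changes were -1.08 and -0.63. In artery-like ECs it stayed at 0 wherever both diets kept 2 libraries, and without NC library 2 the log2 fold change of Ddit3 was -0.61. In vein-like ECs, mural-like cells and the interaction it stayed at 0 under every alternative run. The cause of these changes was not tested.

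The labels number the libraries of each diet 1 and 2 but do not say that equal numbers pair. Deviations of same-numbered libraries correlated between -0.018 and 0.034 over all genes, so the replicate block was not the main design. It moved the called genes in all ECs from 6 higher and 3 lower to 77 and 33, and in capillary-like ECs from 23 and 13 to 405 and 232. Over all alternatives called genes ranged from 1 to 504 higher and 1 to 377 lower in all ECs, 0 to 550 and 1 to 413 in capillary-like ECs, 19 to 199 and 6 to 99 in artery-like ECs, 10 to 147 and 0 to 66 in vein-like ECs (64 and 17 as reported) and 15 to 140 and 0 to 47 in mural-like cells (50 and 4 as reported).

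Not thinned, 0 shares were higher in HFpEF, against 5 thinned. The median log2 ratio of the 10 genes to capillary-like ECs was -0.30 in artery-like ECs, -0.227 at resolution 0.5 and -0.35 to -0.266 with each library left out, and in vein-like ECs -0.16, -0.0286 at resolution 0.5, -0.091 at resolution 1.2 and -0.20 to -0.0806 with each library left out (-0.0806 without NC library 2). Atf4 in all ECs turned to -0.0934 at the common cluster mix, Asns in mural-like cells to -0.0289 with the replicate block, and Xbp1 in capillary-like ECs to -0.0181 without the cluster led by cardiomyocyte genes and to -0.000862 without that cluster and the heat shock cluster 2, where called genes over all genes went from 23 higher and 13 lower to 0 and 1.

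Log2 fold changes that changed sign with a library left out ranged as follows. In all ECs they were -0.383 to 0.0248 for Ddit3, -0.102 to 0.227 for Xbp1 and -0.149 to 0.392 for Sdf2l1. In capillary-like ECs they were -0.0977 to 0.165 for Xbp1, -0.0114 to 0.29 for Dnajb9, -0.0372 to 0.103 for Atf4 and -0.0225 to 0.359 for Sdf2l1. In artery-like ECs they were -0.268 to 0.207 for Herpud1, -0.116 to 0.204 for Xbp1, -0.0693 to 0.107 for Atf4 and -1.84 to 0.309 for Sdf2l1. In vein-like ECs they were -0.515 to 0.417 for Trib3, -0.439 to 0.221 for Ddit3, -0.166 to 0.639 for Xbp1, -0.145 to 0.0742 for Dnajb9, -0.0437 to 0.202 for Atf4 and -0.0163 to 0.983 for Sdf2l1. In mural-like cells they were -0.481 to 0.991 for Trib3, -0.396 to 0.936 for Asns, -0.251 to 0.557 for Herpud1, -0.122 to 0.179 for Xbp1 and -0.476 to 0.538 for Sdf2l1.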
